A study of Rattus norvegicus with 23 samples.

Results

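The S100 calcium-binding proteins examined here were 9 rat genes, S100a1, S100a4, S100a6, S100a8, S100a9, S100a10, S100a11, S100a13 and S100b, measured in the dorsal hippocampus of young and aged rats. Every probe set that the array's annotation assigned to a single one of these symbols was taken, which gave 12 probe sets of the 29211 on the array. S100a11 was named by 4 probe sets and each other gene by 1. Probe sets entered the tests if 4 or more arrays reached a signal of 40, and 7 of the 9 genes (8 of the 12 probe sets) passed, among 13339 probe sets tested in all. For S100a11, values below are from probe set 10817183, the brightest on average, unless another is named.

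The 23 samples were male F344 rats with 1 array for each animal, so that each replicate was a separate rat. The long-term group (LT, n = 6) and the short-term group (ST, n = 6) received the AAV-FKBP1b vector in hippocampal CA1, which carries rat Fkbp1b under a CaMKII promoter (a promoter active mainly in excitatory neurons), and were 21 months old. Fkbp1b encodes a small protein that binds ryanodine receptors and limits calcium release from intracellular stores. Exposure was labelled as 9 months in LT rats and 3 months in ST rats, from injection ages of 12 and 18 months, whereas the design text gives 13 months for LT and 19 months for ST. The aged controls (AC, n = 5) were also 21 months old and received a vector with eGFP and the same promoter, at 18 months by the labels and at 13 months by the design text. The AAV-eGFP titer was 1.86e13 GC/ml and the AAV-FKBP1b titer 1.99e12 GC/ml. The young controls (YC, n = 6) were 5 to 6 months old and, by the design text, received no injection, although their labels read sham. All groups had been trained in a water maze. The ST and LT rats put on arrays had been selected by the investigators for high FKBP1b expression. AC and YC rats differ in age, vector, surgery and eGFP, and these cannot be told apart here.

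The targeted gene was higher on average in the FKBP1b groups, which the selection of those rats for high expression favors, so it is a weak check of the labels. Fkbp1b signal ran from 843 to 1217 on LT arrays, from 427 to 881 on ST arrays, from 364 to 458 on AC arrays and from 353 to 411 on YC arrays. The ST and AC ranges overlapped. These values are from probe set 10940524, which the annotation used here assigns to Fkbp1b, whereas the paper states that its array has no probe set for this gene. All 10 hippocampal neuron markers passed the minimum signal. This is only a weak check of the tissue label, since 23559 of the 29211 probe sets passed it. Some arrays stood apart in other markers. A choroid plexus score, the mean over 14 markers of each array's log2 signal minus the marker's mean, was 2.61 and 2.67 on LT replicates 2 and 5 and 2.63 and 3.17 on AC replicates 3 and 4, and was 0.54 or less on the other 19 arrays. AC replicate 5 had the highest microglia score over 12 markers, 0.92, with an oligodendrocyte score of -0.53 and a neuron score of -0.46. In bulk tissue, fewer cells of a type and less RNA in each cell cannot be told apart. The RNA integrity number of AC replicate 5 was 8.9, the lowest of the AC arrays. These numbers ran from 8.9 to 9.5 in LT, 9.4 to 9.7 in ST, 8.9 to 9.8 in AC and 9.4 to 9.5 in YC. The part of RNA quality in these scores was not tested.

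S100 proteins are small proteins with a pair of EF-hand motifs, which bind calcium in most but not all members, usually working as dimers. In those members calcium binding exposes a surface for attaching to target proteins. Targets of the family include annexins, myosin, tubulin partners and calcium release channels. Several are also secreted and bind cell-surface receptors such as RAGE (Ager) and Tlr4. In brain, S100b is known chiefly as an astrocyte protein, whereas S100a8 and S100a9 are carried by neutrophils and other myeloid cells. In RefSeq (GRCr8), 8 of the 9 genes lie on chromosome 2 and S100b lies on chromosome 20.

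Upstream sequence was at hand for 6 of the 9 genes, as 250 bases before the RefSeq start. The stretches for S100a11, S100a4 and S100b are shown because these genes, with S100a6, were the ones that passed a test below, and because they differ in their core motifs. The S100a6 stretch lies inside the annotated gene and is not shown, and for S100b only the 172 bases before the outermost start of the gene are shown. Capitals mark matches to motif letters searched on both strands (TGANTCA for AP-1, GGGACTTTC for NF-kB, TTCNNNGAA for STAT, TATAAA for a TATA box, GGGCGG for a GC box and CACGTG for an E-box).
S100a11, chr2:181874882-181875131, plus strand: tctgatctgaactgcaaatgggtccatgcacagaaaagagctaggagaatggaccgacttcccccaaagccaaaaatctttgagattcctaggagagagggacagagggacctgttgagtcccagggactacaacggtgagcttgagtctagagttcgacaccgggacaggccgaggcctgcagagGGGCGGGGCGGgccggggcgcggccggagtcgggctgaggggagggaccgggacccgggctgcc
S100a4, chr2:178388279-178388528, plus strand: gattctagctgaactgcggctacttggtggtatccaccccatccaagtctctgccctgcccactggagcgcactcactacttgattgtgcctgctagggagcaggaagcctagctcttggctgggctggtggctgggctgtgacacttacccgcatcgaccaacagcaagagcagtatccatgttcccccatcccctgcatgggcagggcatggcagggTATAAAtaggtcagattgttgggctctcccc
S100b, chr20:12381160-12381331, minus strand: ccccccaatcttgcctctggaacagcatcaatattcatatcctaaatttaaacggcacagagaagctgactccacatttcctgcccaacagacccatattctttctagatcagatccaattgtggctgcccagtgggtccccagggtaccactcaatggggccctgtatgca
The S100a11 stretch held 2 overlapping GC boxes and the S100a4 stretch held 1 TATA box, whereas the S100b stretch held none of the letters searched. Over 33469 RefSeq stretches of 250 bases, 30.5% held a GC box, 12.9% a TATA box, 6.34% the AP-1 letters, 7.67% the STAT letters, 5.59% an E-box and 0.272% the NF-kB letters. A match is a description of letters and not of a bound site.

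Across the 4 groups, S100b and S100a6 passed the F test (limma, adjusted p = 0.00057 and 0.022), which is 2 of 7 genes tested where 5.46% of all probe sets passed. S100b ranked 10 by p among the 13339. The next were S100a13 (adjusted p = 0.057), S100a11 (0.06), S100a4 (0.085), S100a1 (0.13) and S100a10 (0.18), none of which passed.

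**Figure D1:**
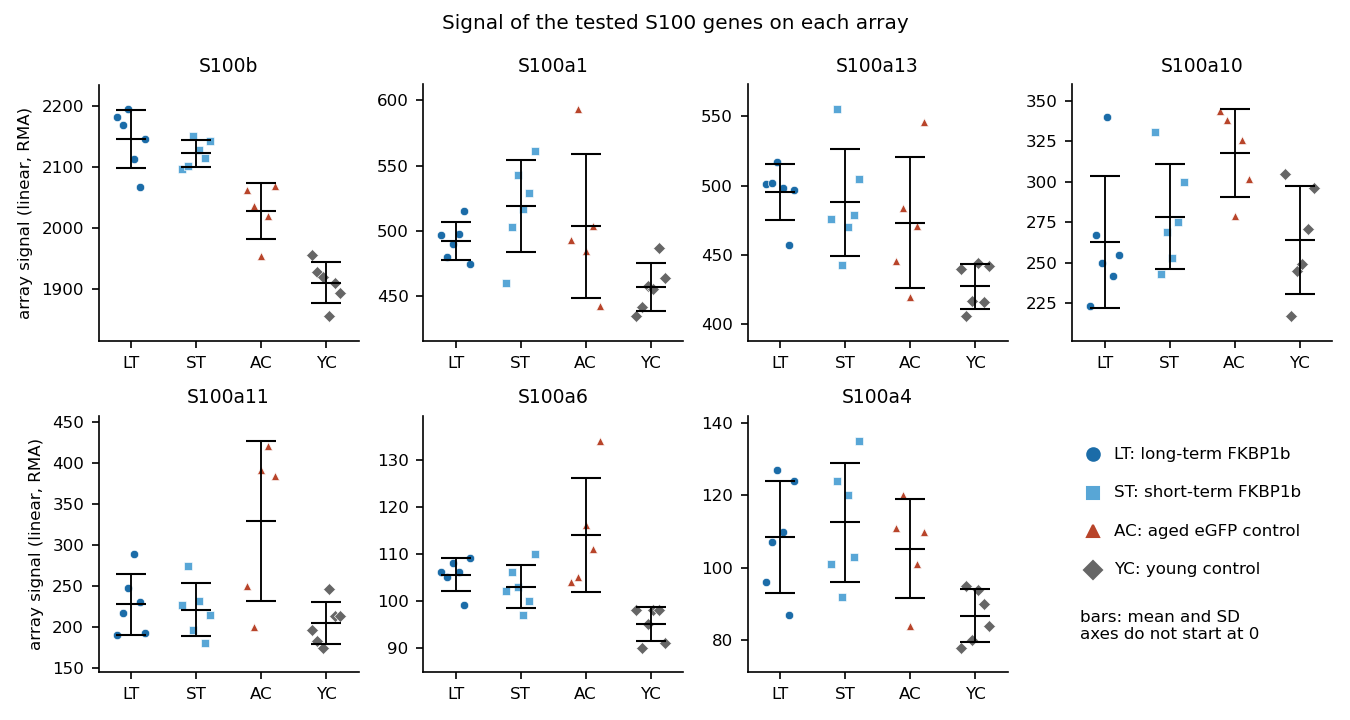
Array signal (linear RMA signal, 1 point for each rat) of the 7 tested S100 genes in LT, ST, AC and YC rats, with bars for the mean and SD. All 12 LT and ST points of S100b lie above all YC points, and 3 AC points of S100a11 lie at 384 or above while every LT, ST and YC point is at 289 or below.

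S100b was higher in all 3 aged groups than in young rats. The S100b signal had a lowest value of 2068, a median of 2158.5 and a highest of 2195 on LT arrays, and 2097, 2121.5 and 2151 on ST arrays. AC arrays 1 to 5 had 2062, 2036, 1953, 2020 and 2069, and YC arrays had a lowest value of 1855, a median of 1914 and a highest of 1956. Every LT and every ST array was above every YC array, and 4 of 5 AC arrays were. The log2 difference from YC was 0.17 in LT (SE 0.022, limma adjusted p = 0.00048), 0.15 in ST (SE 0.022, adjusted p = 0.00074) and 0.09 in AC (SE 0.023, adjusted p = 0.023). These are differences of 1.12-fold, 1.11-fold and 1.06-fold. By p, S100b ranked 4 among all probe sets in LT vs YC and 12 in ST vs YC. The AC call was lost without YC replicate 4 (0.08, adjusted p = 0.053). It was also lost with array medians made equal (0.06, adjusted p = 0.13) and with the compared groups alone (0.09, adjusted p = 0.11). The alternatives chosen after seeing the data, given below, lost it too. The LT and ST calls held under each alternative run.

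Among the 7 tested genes, S100b alone had every ST array above every AC array, a pattern that 0.195% of all tested probe sets showed, and 5 of 6 LT arrays were above every AC array. The difference did not pass after adjustment in either group. It was 0.08 in LT vs AC (95% interval 0.03 to 0.13, adjusted p = 0.16) and 0.07 in ST vs AC (0.02 to 0.11, adjusted p = 0.39). A score over 10 astrocyte markers ran from -0.03 to 0.04 in LT, -0.06 to 0.09 in ST, -0.08 to 0.09 in AC and -0.05 to 0.01 in YC. The microglia score ran from -0.05 to 0.29 in LT, -0.06 to 0.38 in ST, -0.01 to 0.92 in AC and -0.34 to -0.26 in YC, so that it did not overlap between any aged group and YC. With that score as a covariate, an alternative chosen after seeing the data, S100b was 0.16 in LT vs YC (adjusted p = 0.0049) and 0.14 in ST vs YC (adjusted p = 0.005). In AC vs YC it was 0.07 (adjusted p = 0.17). Because the score separates YC from the aged groups, this fit cannot cleanly tell the score from the difference against YC. That limit holds for every gene given with this covariate below.

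S100a1 binds ryanodine receptors and the SERCA calcium pump in heart and skeletal muscle, and S100a13 takes part in the release of FGF1 and IL1A from cells. Neither passed in any comparison of the full fit. The S100a1 signal had a lowest value of 475, a median of 493.5 and a highest of 515 on LT arrays, and 460, 523 and 561 on ST arrays. In AC replicates 1 to 5 it was 493, 593, 485, 504 and 443, and YC arrays had a lowest value of 435, a median of 457 and a highest of 487. It overlapped YC in each aged group, with 4 of 6 LT arrays, 5 of 6 ST arrays and 3 of 5 AC arrays above every YC array. The difference nearest to passing was ST vs YC, 0.18 (SE 0.053, adjusted p = 0.055). It passed on leaving out 3 of the 23 arrays singly and in 8 of 19 other alternatives, the unadjusted ones included. Among these were the alternatives chosen after seeing the data. ST vs YC was 0.25 (adjusted p = 0.018) with the microglia score as a covariate, and 0.18 (adjusted p = 0.024) without AC replicates 3, 4 and 5.

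The S100a13 signal had a lowest value of 457, a median of 499.5 and a highest of 517 on LT arrays, and 443, 477.5 and 555 on ST arrays. AC arrays 1 to 5 had 446, 484, 420, 471 and 546, and YC arrays had a lowest value of 406, a median of 428.5 and a highest of 444. All 6 LT arrays lay above every YC array, as did 5 of 6 ST and 4 of 5 AC arrays. The log2 difference from YC was 0.21 in LT (SE 0.054, adjusted p = 0.062), 0.19 in ST (adjusted p = 0.052) and 0.14 in AC (adjusted p = 0.11). With the microglia score as a covariate it was 0.10 in LT (adjusted p = 0.27), 0.06 in ST (adjusted p = 0.48) and -0.02 in AC (adjusted p = 0.85). Without AC replicates 3, 4 and 5, also chosen after seeing the data, it passed in LT (0.21, adjusted p = 0.013) and ST (0.19, adjusted p = 0.017), and not in AC (0.12, adjusted p = 0.34). In LT vs YC, 2.29% of all probe sets had every LT array above every YC array, and S100b, S100a13 and S100a6 were among them.

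S100a10 (p11) forms a complex with annexin A2, and S100a11 binds annexin A1. S100a11 was higher in AC than in YC rats, and the AC arrays divided. The S100a11 signal had a lowest value of 190, a median of 223.5 and a highest of 289 on LT arrays, and 181, 221 and 274 on ST arrays. AC arrays 1 to 5 had 250, 200, 391, 420 and 384, and YC arrays had a lowest value of 175, a median of 205 and a highest of 246. AC replicates 3, 4 and 5 were above every other array of the study, AC replicate 1 was above every YC array by a small margin, and AC replicate 2 lay within the YC range. The AC vs YC difference was 0.64 (SE 0.16, 1.55-fold, adjusted p = 0.017). It was 0.56 without AC replicate 3 (adjusted p = 0.053) and 0.53 without AC replicate 4 (adjusted p = 0.055).

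Markers of other cell types were also high on some or all of these 3 AC arrays. AC replicates 3 and 4 had the 2 highest choroid plexus scores of the AC group, and AC replicate 5 the highest microglia score. A score over 10 meningeal fibroblast markers was 0.45, 0.60 and 0.44 on these 3 arrays and 0.05 and 0.04 on AC replicates 1 and 2. A score over 9 endothelial markers was 0.34, 0.33 and 0.18 on AC replicates 3, 4 and 5, and no other array of the 23 was above 0.11. Of these 9 markers, 7 were called higher in AC vs YC. A score over 5 erythroid markers was 1.12 and 1.19 on AC replicates 3 and 4 and 0.00 on AC replicate 5, and 0.19 or less on every array outside AC. LT replicates 2 and 5 had meningeal scores of 0.49 and 0.54 and choroid plexus scores of 2.61 and 2.67 beside S100a11 signals of 217 and 230, with endothelial scores of 0.11 and -0.07. With those 4 choroid-high arrays (AC 3 and 4, LT 2 and 5) left out, the AC vs YC difference was 0.40 (adjusted p = 0.2). Without AC replicates 3, 4 and 5, an alternative chosen after seeing the data, it was 0.14 (adjusted p = 0.71). These were the AC arrays with the highest S100a11 signals, so that a smaller difference was fixed in advance. Only AC replicates 1 and 2 remained in that fit. With the choroid plexus score as a covariate the AC vs YC difference over all arrays was 0.53 (adjusted p = 0.055). With the microglia score as a covariate, also chosen after seeing the data, it was 0.42 (adjusted p = 0.23). The part of the meningeal, endothelial and erythroid markers was not tested.

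**Figure D2:**
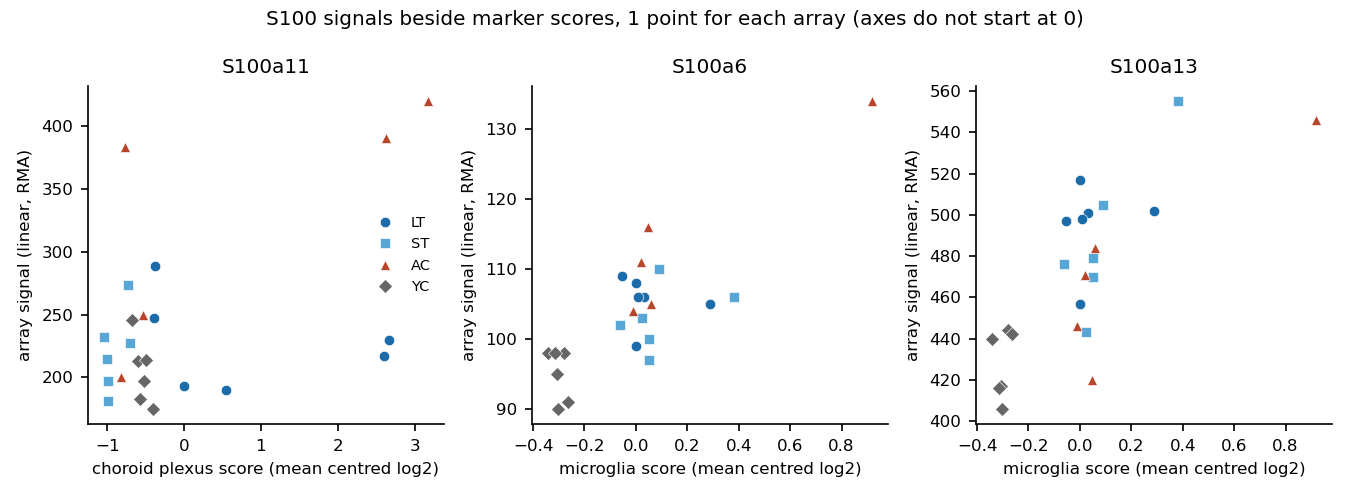
Linear array signal of S100a11 against the choroid plexus score, and of S100a6 and S100a13 against the microglia score, with 1 point for each array in LT, ST, AC and YC. The 3 S100a11 points at 384 or above are AC arrays with choroid plexus scores of 2.63, 3.17 and -0.77, and the S100a6 point at 134 is the AC array with the microglia score of 0.92.

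The second tested S100a11 probe set did not repeat this. The 2 dimmest read somewhat higher on the same 3 AC arrays than on YC arrays, at signals below the minimum, and 1 of them also on LT arrays. RefSeq lists 5 S100a11 pseudogenes and 2 S100a11-like genes, and which copy each probe set reads is not given in the sources used here, so the S100a11 values are uncertain in that respect. Probe set 10796941 had 161, 151, 161, 195 and 165 on AC arrays and 149 to 168 on YC arrays, a difference of 0.05 (SE 0.068, adjusted p = 0.69). Probe sets 10850608 and 10840667 were below 40 on every array and were not tested. Their values on AC replicates 3, 4 and 5 were 20, 22 and 15 for 10850608 and 19, 20 and 14 for 10840667, against 10 to 13 on AC replicates 1 and 2 and on YC arrays. For 10850608 the highest value of all was 23, on LT replicate 3, and LT replicate 4 had 16. ST arrays ran from 12 to 13. For 10840667, ST and LT arrays ran from 11 to 13, close to the 14 of AC replicate 5.

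**Figure D3:**
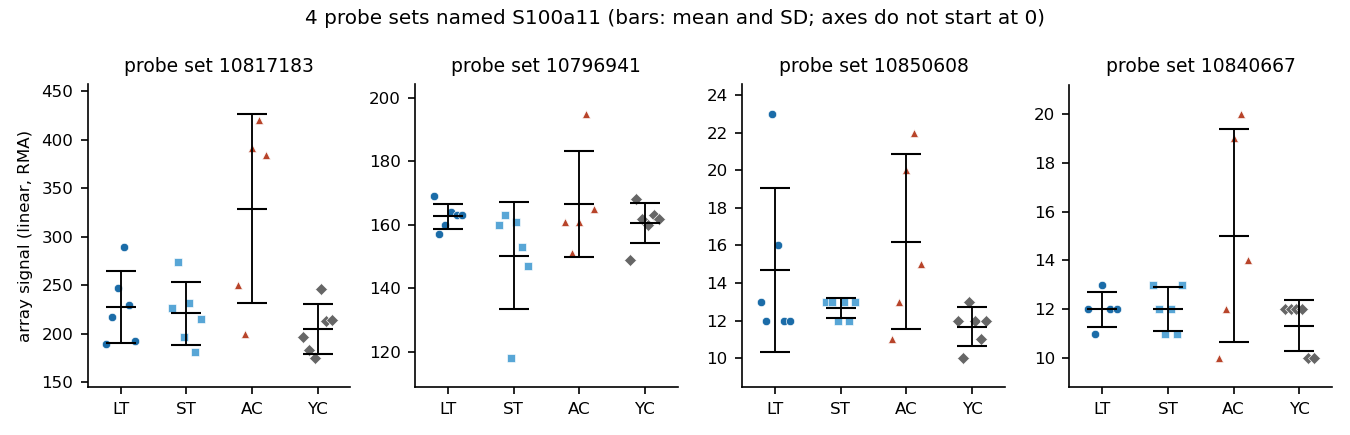
Linear array signal of the 4 probe sets named S100a11 in LT, ST, AC and YC rats, with 1 point for each array and bars for the mean and SD. Probe set 10817183 reaches 420 in AC, and probe sets 10850608 and 10840667 stay at 23 or below on every array, with LT replicate 3 blank for 10840667.

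The S100a10 signal had a lowest value of 223, a median of 252.5 and a highest of 340 on LT arrays, and 243, 272 and 331 on ST arrays. In AC replicates 1 to 5 it was 344, 338, 279, 326 and 302, and YC arrays had a lowest value of 217, a median of 260 and a highest of 305. In AC, 3 of 5 arrays were above every YC array. The difference from YC was 0.27 (SE 0.1, adjusted p = 0.083) and did not pass. RefSeq lists 1 S100a10 pseudogene.

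S100a6 (calcyclin) binds the calcyclin-binding protein Cacybp, and S100a4 binds nonmuscle myosin IIA and is associated with cell motility. S100a6 was higher in AC than in YC rats with no overlap, a pattern that 3.21% of all probe sets showed. The S100a6 signal had a lowest value of 99, a median of 106 and a highest of 109 on LT arrays, and 97, 102.5 and 110 on ST arrays. On the 5 AC arrays it was 104, 105, 116, 111 and 134, and YC arrays had a lowest value of 90, a median of 96.5 and a highest of 98. The AC vs YC difference was 0.26 (SE 0.051, 1.2-fold, adjusted p = 0.0044). Every LT array also lay above every YC array, with a difference of 0.15 (adjusted p = 0.15). ST overlapped YC, with 0.12 (adjusted p = 0.17). The AC vs YC call held on leaving out each array singly and on leaving out the 4 arrays with raised choroid plexus scores (0.26, adjusted p = 0.032). It did not hold without AC replicates 3, 4 and 5 (0.14, adjusted p = 0.14) or with the microglia score as a covariate (0.12, adjusted p = 0.19), both chosen after seeing the data. The microglia score did not overlap between AC (-0.01 to 0.92) and YC (-0.34 to -0.26), so that the fit cannot cleanly separate it from the group. AC replicates 3, 4 and 5 had the highest S100a6 signals of the AC arrays. A smaller difference without them was therefore fixed in advance.

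The S100a4 signal had a lowest value of 87, a median of 108.5 and a highest of 127 on LT arrays, and 92, 111.5 and 135 on ST arrays. On the 5 AC arrays it was 111, 120, 84, 101 and 110, and YC arrays had a lowest value of 78, a median of 87 and a highest of 95. It overlapped YC in each aged group. ST vs YC passed at 0.37 (SE 0.1, adjusted p = 0.046), while LT vs YC was 0.31 (adjusted p = 0.15) and AC vs YC was 0.27 (adjusted p = 0.11). The ST call was lost on leaving out 14 of the 23 arrays singly, including arrays of the other groups, with adjusted p up to 0.12. With the microglia score as a covariate it was 0.30 (adjusted p = 0.14).

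S100a8 and S100a9, the subunits of calprotectin, were below 40 on every array and were not tested. S100a8 ran from 7 to 11 on LT arrays, 9 to 12 on ST arrays, 8 to 12 on AC arrays and 8 to 10 on YC arrays. S100a9 ran from 29 to 38 on LT arrays, 27 to 32 on ST arrays, 28 to 33 on AC arrays and 30 to 33 on YC arrays.

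In AC vs YC, then, 3 of the 7 tested genes were called higher (S100a6, S100a11 and S100b) and none lower, where 5.56% of all tested probe sets were higher and 4.18% lower. All 7 were higher at an unadjusted p under 0.05, where 13.7% of all probe sets were. The median log2 difference of the 7 was 0.26, against -0.01 over all probe sets tested. The 3 calls went to 0 without AC replicates 3, 4 and 5, and to 0 with the microglia score as a covariate. S100b was then 0.10 (adjusted p = 0.088) without the arrays and 0.07 (adjusted p = 0.17) with the covariate, against 0.09 in the full fit. S100a6 was 0.14 (adjusted p = 0.14) without the arrays and 0.12 (adjusted p = 0.19) with the covariate. Differences of other genes grew, though none passed. S100a1 was 0.24 (adjusted p = 0.073) without the arrays and 0.23 (adjusted p = 0.07) with the covariate, against 0.13 in the full fit. S100a10 was 0.38 (adjusted p = 0.16) and 0.36 (adjusted p = 0.11), against 0.27. S100a4 was 0.41 (adjusted p = 0.13) and 0.19 (adjusted p = 0.46), against 0.27. S100a13 was 0.12 and -0.02, against 0.14. Without the arrays only AC replicates 1 and 2 remained, which also weakens the test. The arrays left out had the highest AC signals of S100a11 and S100a6, so that smaller differences there were fixed in advance. AC replicates 1 and 2 had the highest AC signals of S100a10 and S100a4, so that larger differences there were also fixed in advance. The microglia score did not overlap between AC and YC. The share of all probe sets called in those settings is not given here, so the fall to 0 cannot be read as particular to these genes. With AC replicates 3 and 4 and LT replicates 2 and 5 left out, 2.27% of all probe sets were called higher in AC vs YC. S100a6 (0.26, adjusted p = 0.032) and S100b (0.11, adjusted p = 0.032) were then still called, and S100a11 (0.40, adjusted p = 0.2) was not. What the calls rest on was not tested.

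**Figure D4:**
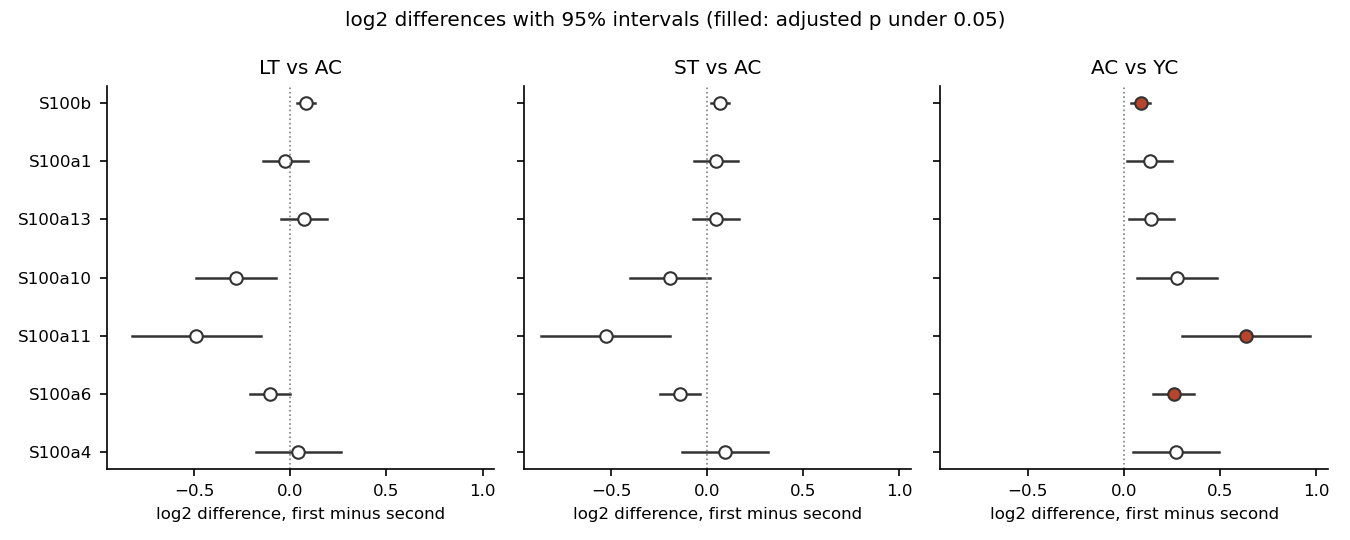
log2 differences of the 7 tested S100 genes with 95% intervals in LT vs AC, ST vs AC and AC vs YC, first group minus second. Filled points, S100b, S100a11 and S100a6 in AC vs YC, had an adjusted p under 0.05, and no point in LT vs AC or ST vs AC did.

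In the comparisons of FKBP1b rats with AC rats no S100 gene passed after adjustment. By the methods' protected LSD tests without adjustment, S100a6, S100a11 and S100b passed in both ST vs AC and LT vs AC. They all use the same AC arrays. In LT vs AC, S100a11 differed by -0.49 (95% interval -0.82 to -0.15, adjusted p = 0.21), S100a10 by -0.28 (-0.49 to -0.07, adjusted p = 0.24) and S100a6 by -0.11 (adjusted p = 0.39). In ST vs AC, S100a11 differed by -0.53 (-0.86 to -0.19, adjusted p = 0.32), S100a10 by -0.19 (adjusted p = 0.54) and S100a6 by -0.14 (adjusted p = 0.39). AC replicates 3, 4 and 5 had the highest AC signals of S100a11 and S100a6. Leaving them out therefore raises both differences by construction, and keeps only AC replicates 1 and 2. The S100a11 difference in LT vs AC was then 0.01 (adjusted p = 0.98). S100a6 was then 0.01 (adjusted p = 0.94) in LT vs AC. In ST vs AC without those arrays S100a11 was -0.03 and S100a6 -0.02 (adjusted p = 1 for both). At an unadjusted p under 0.05 there were 1 higher and 3 lower of 7 in LT vs AC, where 6.03% of all probe sets were higher and 6.59% lower. In ST vs AC there were 1 higher and 2 lower, where 4.91% of all probe sets were higher and 4.91% lower. Over all probe sets 0.0525% were higher and 0.0225% lower in LT vs AC after adjustment, and 0 were called in ST vs AC. For both treatments averaged vs AC the count was also 0 of 7, where 0.015% of all probe sets were higher and 0.015% lower, and it became 1, S100a11, without AC replicate 2. LT vs ST had 0 of 7 at either threshold, where 0.0075% of all probe sets were higher after adjustment, and 4.95% higher and 7.45% lower at an unadjusted p under 0.05, with S100b at 0.02 (95% interval -0.03 to 0.06, adjusted p = 0.79).

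Against young rats, 2 of the 7 genes were called higher in ST (S100b and S100a4), where 2.71% of all probe sets were, and 1 in LT (S100b), where 0.81% were. None was called lower, where 1.44% of all probe sets were lower in ST and 0.225% in LT. Every ST array was above every YC array for S100b alone among the 7, a pattern that 3.49% of all probe sets showed.

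Of the other S100 genes on the array, 4 passed the minimum signal, and S100a16 was called higher in LT vs YC (0.16, adjusted p = 0.016), ST vs YC (0.15, adjusted p = 0.012) and AC vs YC (0.12, adjusted p = 0.029), with mean signals of 322 in LT, 318 in ST, 311.8 in AC and 287.5 in YC. S100a3, S100a7a and S100g did not pass in AC vs YC. Among 12 tested receptors and binding partners at the cell surface, 2 were called higher in AC vs YC and none lower, beside the 5.56% higher and 4.18% lower of all probe sets. These were Tlr4, a receptor for S100a8 and S100a9 (0.46, adjusted p = 0.0067), and Cd68, a macrophage lysosomal protein (0.58, adjusted p = 0.023). Of 12 microglia markers, 9 were called higher in the same comparison, and their part in these 2 was not tested. Ager, which encodes RAGE, differed by -0.04 (adjusted p = 0.81).

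Of 17 annexins and p11 partners, 4 were called higher and 1 lower in AC vs YC, where 5.56% of all probe sets were higher and 4.18% lower. Anxa2, the annexin bound by S100a10, averaged 153 in LT, 123.7 in ST, 223.8 in AC and 125.3 in YC, and differed by 0.74 in AC vs YC (adjusted p = 0.026). Anxa4 (0.45, adjusted p = 0.014), Anxa7 (0.18, adjusted p = 0.017) and Anxa5 (0.18, adjusted p = 0.018) were the other three, and Dysf was lower (-0.22, adjusted p = 0.012). Anxa1, the annexin bound by S100a11, did not pass (0.10, adjusted p = 0.11). Of 28 cytosolic targets, 3 were called higher, Ppfibp1 (0.36, adjusted p = 0.0046), Stk38 (0.19, adjusted p = 0.0067) and Iqgap1 (0.30, adjusted p = 0.016), and 1 lower, Capzb (-0.13, adjusted p = 0.011), beside the same 5.56% and 4.18% of all probe sets. Cacybp differed by -0.04 (adjusted p = 0.46). None of 12 S100a1 calcium handling targets passed, with Atp2a3 (adjusted p = 0.056) and Ryr1 (adjusted p = 0.16) nearest. No gene of these lists was called in LT vs AC or ST vs AC. The AC vs YC calls of these lists, of the receptors and of S100a16 are from the full fit. They were not rerun without AC replicates 3, 4 and 5 or with a marker score as a covariate. With AC replicates 3 and 4 and LT replicates 2 and 5 left out, 2.27% of all probe sets were called higher in AC vs YC.

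The genes most like each member over the 23 arrays are given as a description, by Pearson's r of log2 signal. The arrays share groups and marker content, so that r also carries those. The 3 nearest were Pla2g7, Trem2 and Mlc1 for S100b (r = 0.85, 0.84 and 0.84), Cp, Tgfb1 and Fcgr2b for S100a6 (0.88, 0.86 and 0.85), Fn1, Ifitm3 and Atp7a for S100a11 (0.87, 0.85 and 0.84) and Tmem176a, Cx3cr1 and Gpr34 for S100a13 (0.84, 0.83 and 0.83). They were Acadl, Plaat3 and Irak3 for S100a1 (0.84, 0.79 and 0.79), Tgfbrap1, Gca and Gatad2a for S100a4 (0.81, 0.79 and 0.77) and Get3, Maf and Vom1r101 for S100a10 (0.74, 0.70 and 0.64). After group means were removed, r for S100b was 0.27 with Pla2g7, 0.34 with Trem2 and 0.61 with Mlc1. It was then 0.72 for S100a6 with Cp and 0.74 for S100a11 with Fn1.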

How the data were processed

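Total RNA from the dorsal hippocampus was measured on a whole-transcript rat expression array from Affymetrix (Rat Gene ST). The authors computed signal intensities with RMA, per the labels with Partek, whose version is not given in the sources used here, and the deposited values are unlogged intensity, rounded to whole numbers, with 758 blank values. Array medians ran from 134 to 141. Of 29211 probe sets, 15307 had 1 gene symbol in the platform annotation, 323 several and 13581 none. Of those with 1 symbol, the 13339 that reached 40 in 4 or more arrays were tested.

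log2 signals were fitted with limma 3.58.1 in R 4.3.3 over all 23 arrays with 4 group means, and p-values were adjusted by Benjamini-Hochberg over all tested probe sets for each of 7 comparisons and for the F test, with 0.05 as the threshold. A blank value was left out of its probe set's fit, of which 207 lay in tested probe sets. The fit was tested on simulated data. The number of arrays limits the precision. The methods' one-way analysis with protected LSD tests was run as an alternative, with the other alternatives described in the closing section. All 9 genes are described. Of each partner list, up to 4 genes that passed, or the nearest that did not, are named, and S100a3, S100a7a, S100g, Ager, Anxa1 and Cacybp were named after their values were seen. The members and lists were chosen with earlier results of these data known. Same-numbered animals of different groups did not deviate together more than others did. Correlations of their deviations from group means were -0.38 to 0.20 over 33 pairs, against -0.42 to 0.56 over 165 differently numbered pairs. Numbers were therefore not treated as pairs, although this check cannot exclude a weak pairing. Sequences are from RefSeq (GRCr8). Figures were drawn with matplotlib.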

Additional observations from a re-analysis of the deposited data

Results flagged for a closer look

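In 4 of 48 combinations of probe set and group, 1 array lay far from the rest by Dixon's criterion, which chance meets in about 1 of 20 groups. S100a8 had 12 on ST replicate 6, against 9 to 10 on the other ST arrays, all below the minimum signal. S100a11 probe set 10796941 had 118 on ST replicate 3, against 147 to 163. S100a11 probe set 10850608 had 23 on LT replicate 3, against 12 to 16. S100a13 had 457 on LT replicate 5, against 497 to 517.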

How the results depend on the processing

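The S100b calls in LT vs YC and ST vs YC and the positive sign of S100a6, S100a11 and S100b in AC vs YC held under each of the 42 alternatives. Counts of S100 genes called moved as follows, against 2 for any difference across groups, 3 in AC vs YC, 0 in ST vs AC, LT vs AC and both treatments averaged vs AC, 2 in ST vs YC and 1 in LT vs YC. The methods' protected LSD analysis without adjustment gave 6, 6, 3, 3, 3, 5 and 4 in that order, and unadjusted limma p-values gave 7, 7, 3, 4, 4, 5 and 4. The 3 genes of the protected LSD analysis in ST vs AC and in LT vs AC were S100a6, S100a11 and S100b. The share of all probe sets called is not given here for that analysis or for most other alternatives, so these counts cannot be set against it. ST vs YC gave 1 with no minimum signal, 1 with array medians made equal, 4 with a minimum of 100, 4 with a variance trend, 4 with the compared groups alone and 5 with array weights. LT vs YC gave 2 with a minimum of 100, 2 with a variance trend, 3 with the compared groups alone and 3 with array weights. AC vs YC gave 1, S100a6, with the compared groups alone. Any difference gave 6 with array weights and 4 with the choroid plexus score as a covariate. Of the alternatives chosen after seeing the data, leaving out AC replicates 3, 4 and 5 gave 4 for any difference, 0 in AC vs YC, 5 in ST vs YC and 3 in LT vs YC, and the microglia score as a covariate gave 1 for any difference and 0 in AC vs YC. Leaving out 1 array at a time gave 1 to 4 for any difference, 2 to 4 in AC vs YC, 1 to 5 in ST vs YC, 1 to 3 in LT vs YC and 0 to 1 for both treatments averaged vs AC. With the replicate block the counts were 2, 3, 0, 0, 0, 2 and 1, so that the block changed no call (S100a6 in AC vs YC 0.26, adjusted p = 0.011). The causes were not tested. Of the tested probe sets, 21.2% had a mean signal under 100, where array background limits what a difference can show. S100a6 and S100a4 lay close to this, with means of 104 and 103 over all arrays and of 95 and 86.8 in YC. Their calls carry that limit. S100a8 and S100a9 could not be assessed at all at their signals.

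Signs turned in 57 values, none of a called difference. With quantile normalization, the turned log2 differences were S100a6 in LT vs ST (-0.00616). With array weights, the turned log2 differences were S100a1 in both treatments vs AC (-0.00167). With RNA integrity number as a covariate, the turned log2 differences were S100a4 in LT vs AC (-0.0174), S100a6 in LT vs ST (-0.0198), S100a11 in LT vs ST (-0.0615), S100a13 in LT vs ST (-0.0465), S100b in LT vs ST (-0.00224). On leaving out AC 3, AC 4, LT 2 and LT 5, they were S100a11 probe set 10796941 in AC vs YC (-0.0151), S100a4 in ST vs AC (-0.0265), S100a13 in ST vs AC (-0.0104), S100a4 in LT vs AC (-0.000255), S100a11 probe set 10796941 in LT vs AC (0.0454), S100a1 in both treatments vs AC (-0.00650), S100a4 in both treatments vs AC (-0.0134), S100a4 in LT vs ST (0.0263), S100a10 in LT vs YC (0.00886). With choroid plexus score as a covariate, the turned log2 differences were S100a4 in ST vs AC (-0.0515), S100a13 in ST vs AC (-0.00609), S100a4 in LT vs ST (0.103), S100a11 in LT vs ST (-0.111), S100a10 in LT vs YC (0.0351), S100a11 probe set 10796941 in LT vs YC (-0.0200). On leaving out AC replicates 3, 4 and 5, they were S100a11 probe set 10796941 in AC vs YC (-0.0423), S100a1 in ST vs AC (-0.0624), S100a4 in ST vs AC (-0.0496), S100a4 in LT vs AC (-0.102), S100a6 in LT vs AC (0.0131), S100a11 in LT vs AC (0.0106), S100a11 probe set 10796941 in LT vs AC (0.0607), S100a1 in both treatments vs AC (-0.0988), S100a4 in both treatments vs AC (-0.0757). With microglia score as a covariate, the turned log2 differences were S100a13 in AC vs YC (-0.0227), S100a1 in both treatments vs AC (-0.0144), S100a11 in ST vs YC (-0.0591), S100a10 in LT vs YC (0.0535), S100a11 in LT vs YC (-0.000277). With 1 array left out at a time, the results that turned ranged, in log2 difference, over -0.0706 to 0.0345 for S100a1 in LT vs AC, -0.0342 to 0.0709 for S100a1 in both treatments vs AC, -0.0856 to 0.0361 for S100a10 in LT vs YC, -0.0103 to 0.0819 for S100a11 probe set 10796941 in AC vs YC, -0.0635 to 0.0288 for S100a11 probe set 10796941 in LT vs AC, -0.00313 to 0.0315 for S100a11 probe set 10796941 in LT vs YC, -0.0319 to 0.105 for S100a11 in LT vs ST, -0.00311 to 0.0619 for S100a13 in LT vs ST, -0.0363 to 0.103 for S100a4 in LT vs AC, -0.108 to 0.00910 for S100a4 in LT vs ST, -0.0102 to 0.118 for S100a4 in both treatments vs AC.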
